A study of Mus musculus with 47 samples.

Results

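The liver transcripts of Zfp39, 2610008E11Rik, Akap7 and N6amt1, were selected on their lower level in UVR-exposed mice without sunscreen (Control + UVR) than in untreated mice (Control-UVR), and were followed through the remaining groups to ask whether the lower level with UVR was also seen under each sunscreen. The 4 genes are members of the 6889 genes that the table analysed here names with a single symbol, and each was measured by 1 transcript on the microarray. Female hairless SKH:QS mice, without any gene deletion or transgene, received 30 treatments over 36 weeks, and liver RNA was hybridised to Affymetrix Mouse Gene 1.0 ST microarrays, 1 array per mouse and 47 arrays in all. Control-UVR mice had neither sunscreen nor ultraviolet radiation (UVR), and Control + UVR mice had 29 kJ/m2 UVR at each treatment. The sunscreen groups had a retail product with ZnO nanoparticles (ZnO-UVR, ZnO + UVR), one with TiO2 nanoparticles and organic filters together (TiO2-UVR, TiO2 + UVR) or one with organic filters alone (Organic-UVR, Organic + UVR), in each case without UVR or with the same dose 20 min after the application. There were 6 arrays per group and 5 in ZnO + UVR. Per the study, adverse events kept some mice from the endpoint, most of them in ZnO + UVR and Control + UVR. Skin neoplasms or dermal inflammation were also found in Control + UVR mice. Which of the mice measured here had such findings is not given in the sources used here. The products were put on the skin and the tissue measured was liver. The labels describe individual housing, whereas the study's methods describe 1 shared cage for each group of this series. If the methods hold, cage and group cannot be told apart in any comparison of groups given here.

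The roles known here for Zfp39, Akap7 and N6amt1 differ. Zfp39 encodes a zinc finger protein of the C2H2 type, a family in which many members bind DNA and silence it through a KRAB domain that recruits the corepressor Trim28. Akap7 encodes an A-kinase anchoring protein, which tethers protein kinase A to a place in the cell by gripping the regulatory subunits of the kinase, and its long forms carry a domain that can cleave the 2-5A messengers of the interferon response. N6amt1 encodes a methyltransferase that works with the partner Trmt112 and modifies the translation termination factor Etf1 and a lysine of histone H4. 2610008E11Rik is known here only by its RIKEN cDNA name. Liver RNA is drawn from a mixture of cells, so fewer cells of a type and less RNA per cell cannot be told apart in any value given here.

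The genes lie apart in the genome, on chromosome 10 (Akap7 and 2610008E11Rik), chromosome 11 (Zfp39) and chromosome 16 (N6amt1). Their RefSeq promoter windows, 250 bases before to 50 bases after the gene start on build GRCm38.p6, were found for all 4, with 2 windows for Akap7. Those of Zfp39, 2610008E11Rik and N6amt1 are shown because the first pair shares a layout which the other does not have. The capitals mark, on either strand, the CCAAT box, the GC box with the letters GGGCGG, and a motif that resembles the site of the factor YY1, with the letters GCCATNTT. These motifs do not overlap one another in the windows shown, and they were picked after the sequences were read.
Zfp39 (chr11:58904176-58904475, minus strand): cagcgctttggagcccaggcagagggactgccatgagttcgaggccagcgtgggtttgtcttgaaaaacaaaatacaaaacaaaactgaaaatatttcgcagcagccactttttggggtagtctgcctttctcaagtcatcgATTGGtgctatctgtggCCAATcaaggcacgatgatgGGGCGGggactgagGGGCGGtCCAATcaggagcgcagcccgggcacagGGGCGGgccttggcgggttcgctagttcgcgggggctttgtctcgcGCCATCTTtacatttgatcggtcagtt
2610008E11Rik (chr10:79097551-79097850, minus strand): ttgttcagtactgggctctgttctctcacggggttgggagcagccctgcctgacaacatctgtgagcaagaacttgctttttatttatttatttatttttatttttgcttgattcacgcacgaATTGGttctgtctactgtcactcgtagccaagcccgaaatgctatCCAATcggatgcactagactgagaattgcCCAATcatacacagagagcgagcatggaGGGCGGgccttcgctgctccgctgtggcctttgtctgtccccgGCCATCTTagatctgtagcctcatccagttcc
N6amt1 (chr16:87353935-87354234, plus strand): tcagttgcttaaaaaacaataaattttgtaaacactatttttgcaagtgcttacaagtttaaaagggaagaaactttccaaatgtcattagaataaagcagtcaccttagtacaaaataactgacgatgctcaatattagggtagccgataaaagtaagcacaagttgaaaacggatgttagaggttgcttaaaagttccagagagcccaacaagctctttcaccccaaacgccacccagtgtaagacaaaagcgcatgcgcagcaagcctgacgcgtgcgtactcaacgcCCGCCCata
Zfp39 and 2610008E11Rik each held 3 CCAAT boxes, a GC box that began 23 and 25 bases before the start, and GCCATCTT, which began at position 24 and 19 of the transcribed strand. The CCAAT box was found in 37.4%, the GC box in 35.7% and GCCATNTT in 6.05% of all 32851 RefSeq windows of this length. These shares count windows with any match at any position. The share with 3 CCAAT boxes, or with the motifs at these positions, was not computed. The N6amt1 window held 1 GC box and neither of the other motifs, and it was 41.0% G and C against a median of 52.7% over all windows. The first Akap7 window was 68.7% G and C and held 2 GC boxes, and the second held 2 CCAAT boxes, 1 GC box and the E-box CACGTG, which is in 7.15% of all windows. The cAMP response element TGACGTCA, in 1.79% of all windows, was searched because Akap7 serves the cAMP pathway and was in no window of the 4 genes. These matches describe letters in a window and nothing about the binding of a factor.

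All 20 hepatocyte markers measured lay above the median of their array in every array, as the label of the tissue has it. One array stood apart. Regressed on the transcript means over the series, Organic-UVR replicate 1 gave a slope of 0.772, where the other 46 arrays gave 0.895 to 1.07. It also had the lowest mean level of the hepatocyte markers (10.6 on the log2 scale). The UVR effects and product comparisons of the 4 genes that rest on this array are therefore given with and without it. So are the correlations of the 4 genes with one another over the sunscreen arrays. All other correlations, those with markers, other genes and the array slope among them, include it. The slopes were 1.02 to 1.05 in Control-UVR and 0.928 to 1.03 in Control + UVR. All values are log2 intensities after robust multi-array averaging, and a difference of 1 is a doubling.

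The values that chose the genes were as follows. In limma, with the replicate number as a block, Zfp39 was lower by a log2 difference of -0.66 ± 0.13 (SE), 2610008E11Rik by -0.60 ± 0.13, Akap7 by -0.59 ± 0.13 and N6amt1 by -0.54 ± 0.11. These are 0.635-, 0.658-, 0.663- and 0.686-fold of Control-UVR. The threshold was an adjusted p under 0.1, and the genes lay between 0.0774 and 0.0789. Abcd2, a peroxisomal transporter of very long chain fatty acids, was also just inside (-0.85, adjusted p = 0.0789) but is not among the genes chosen, and Daam1, an actin regulator, was just outside (-0.59, adjusted p = 0.125). In all, 5 of 9815 transcripts (0.0509%) were called lower in this comparison and 0 higher. As these values chose the genes, they are a description and support nothing.

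The selection sat close to its threshold. Of 10 alternatives other than leaving out an array, each of the 4 genes was called in 4. With the compared groups fitted alone, the adjusted p in limma was 0.172 for all 4 genes. The exact permutation test called none of them, where 213 transcripts must reach its smallest p (0.00216) before any can pass. Without the replicate block the adjusted p of all 4 genes was 0.287, with the values quantile-normalised again they lay between 0.123 and 0.308, and with the slope of each array as a covariate they were 0.167 for estimates of -0.57 (Zfp39), -0.51 (2610008E11Rik), -0.57 (Akap7) and -0.49 (N6amt1). All 4 genes passed with array weights (0.0298 to 0.0333), with dim transcripts left out (0.0418 to 0.0449), with 1 transcript per gene (0.0481), with unmoderated variances (0.0779 to 0.0970) and without Organic-UVR replicate 1 (0.0511 to 0.0568). When each of the 12 arrays was left out in turn, all 4 genes passed in 1 case (without Control + UVR replicate 2) and none passed in 6. The estimates themselves moved less, from -0.75 to -0.54 for Zfp39, from -0.69 to -0.51 for 2610008E11Rik, from -0.70 to -0.52 for Akap7 and from -0.62 to -0.49 for N6amt1. The sign was thus kept with any array left out, and the call was not.

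**Figure D1:**
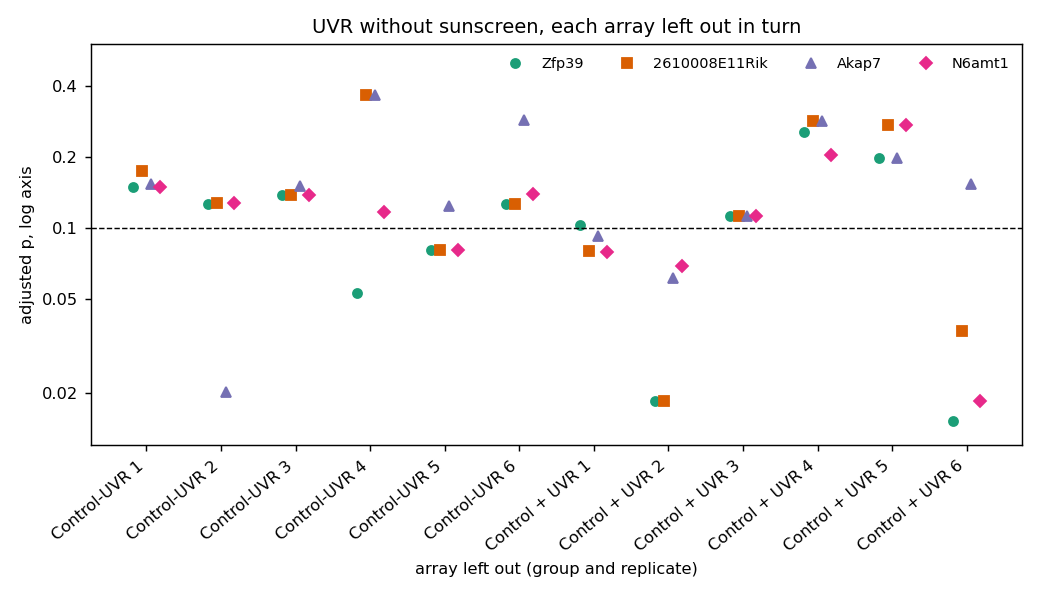
Adjusted p (log axis) of the 4 genes for Control + UVR against Control-UVR in limma, with each of the 12 arrays on the x axis left out in turn; symbols stand for genes and the dashed line for the threshold of 0.1. All 4 genes lie under the line only without Control + UVR replicate 2, and none does in 6 of the 12 cases.

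Zfp39, the zinc finger gene, had the widest range of group means, 0.66 on the log2 scale. The 6 Control-UVR arrays ran from 5.25 through a median of 5.72 to 6.18, and the 6 Control + UVR arrays from 4.69 through 5.08 to 5.66. Every Control + UVR array was below the Control-UVR median, 3 of them below the lowest Control-UVR array, and the groups overlapped. With the ZnO product the arrays without UVR ran from 5.47 through 5.78 to 6.01, and those with UVR were 5.77, 5.53, 5.69, 5.31 and 5.10. All 5 of the latter lay below the ZnO-UVR median, 2 of them below its lowest array. With the TiO2 product the arrays ran from 5.02 through 5.62 to 5.77 without UVR and from 5.07 through 5.49 to 5.89 with UVR, and 3 of 6 UVR arrays lay above the TiO2-UVR median. With the organic product they ran from 5.24 through 5.44 to 5.68 without UVR and from 4.69 through 5.35 to 5.63 with UVR. One Organic + UVR array, replicate 4, was as low as the lowest Control + UVR array, and the other 5 lay inside the range of Organic-UVR.

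2610008E11Rik was at 6.75, 7.02 and 7.35 (lowest, median and highest) in Control-UVR and at 5.88, 6.45 and 7.04 in Control + UVR. The Control + UVR arrays were split, with replicates 2, 3 and 6 at 7.04, 6.81 and 6.68 and replicates 1, 4 and 5 at 6.22, 5.95 and 5.88, 4 of the 6 below the lowest Control-UVR array, which gave this group the largest SD of the gene (0.48 against 0.10 to 0.31 in the other groups). In ZnO-UVR the levels were 6.62, 6.85 and 7.20, and the ZnO + UVR arrays read 6.80, 6.79, 6.80, 6.82 and 6.57. All 5 were below the ZnO-UVR median, and 4 of them lay within 0.03 of one another. In TiO2-UVR the levels were 6.32, 6.72 and 7.07, and in TiO2 + UVR 6.13, 6.41 and 6.64. Every TiO2 + UVR array was below the TiO2-UVR median and 2 were below its lowest array. In Organic-UVR the levels were 6.24, 6.39 and 7.07, and in Organic + UVR 6.13, 6.57 and 6.90, where 5 of 6 arrays lay above the Organic-UVR median.

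Akap7, the kinase anchor, was at 6.54, 6.82 and 7.11 (lowest, median and highest) in Control-UVR and at 5.75, 6.20 and 6.60 in Control + UVR, with 5 of 6 arrays below the lowest Control-UVR array. In ZnO-UVR it was at 6.42, 6.82 and 7.00, and the ZnO + UVR arrays read 6.38, 6.70, 6.63, 6.34 and 6.61. All 5 were below the ZnO-UVR median, and 2 were below its lowest array. In TiO2-UVR the levels were 6.30, 6.49 and 7.08, and in TiO2 + UVR 6.22, 6.66 and 6.77, with 4 of 6 UVR arrays above the TiO2-UVR median. In Organic-UVR they were 6.10, 6.36 and 7.18, the widest spread of any group (SD 0.41), and in Organic + UVR 6.09, 6.36 and 6.81. The organic groups covered almost the same range.

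N6amt1, the methyltransferase gene, was at 5.68, 5.89 and 6.28 (lowest, median and highest) in Control-UVR and at 5.07, 5.43 and 5.69 in Control + UVR, again with 5 of 6 arrays below the lowest Control-UVR array. In ZnO-UVR it was at 5.50, 5.72 and 5.91, and the ZnO + UVR arrays read 5.66, 5.90, 5.67, 5.68 and 5.69, none of them below the lowest ZnO-UVR array. In TiO2-UVR the levels were 5.44, 5.61 and 5.88. In TiO2 + UVR they were 5.20, 5.67 and 6.26, so that 2 UVR arrays lay above and 2 below all the TiO2-UVR arrays, with an SD of 0.40 against 0.17. In Organic-UVR the levels were 5.26, 5.39 and 6.07, and in Organic + UVR 5.21, 5.42 and 5.73.

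The groups with and without UVR overlapped for all 4 genes, with and without sunscreen. Over all transcripts, every UVR array was below every array without UVR for 0.408% without sunscreen, 0.0917% with the ZnO product, 0.357% with the TiO2 product and 0.0204% with the organic product, and 0 of the 4 genes was among these in any of the 4 pairs.

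**Figure D2:**
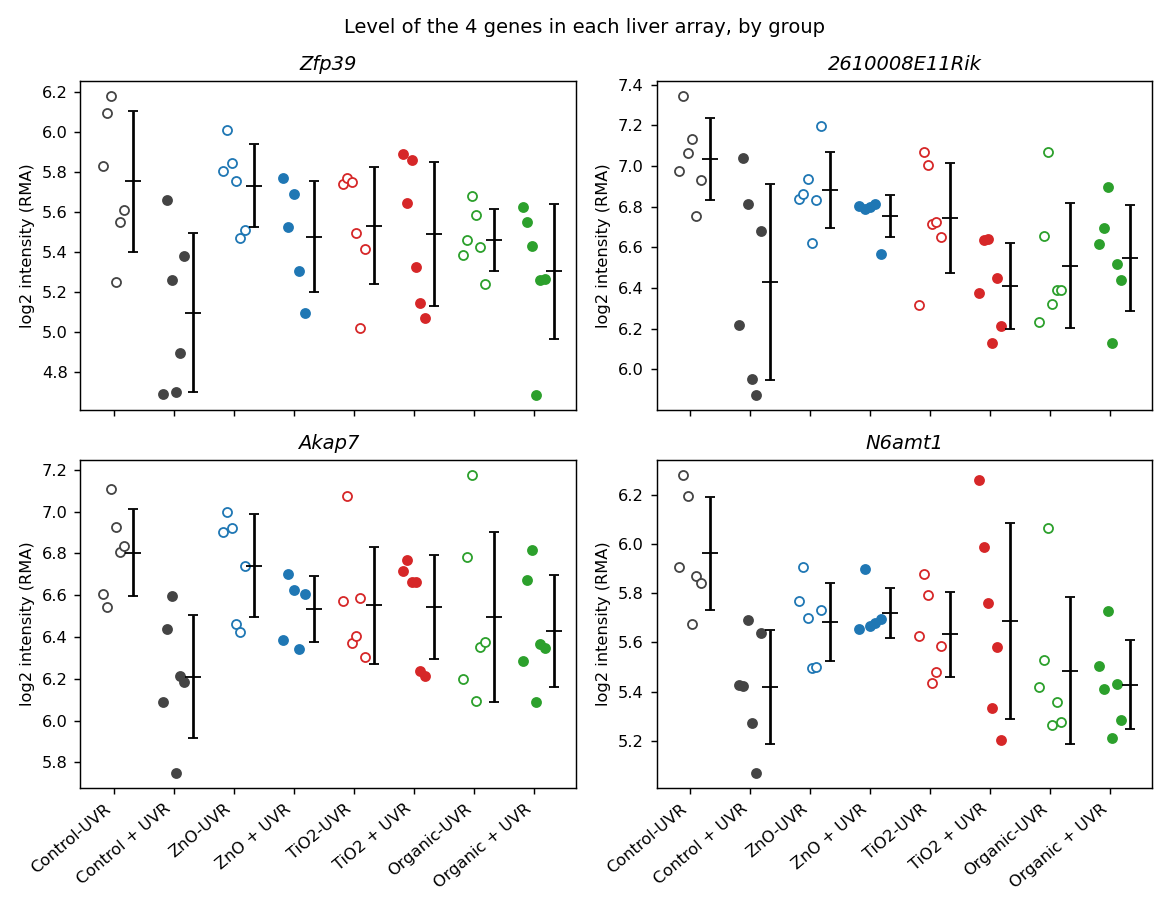
Level of each gene in each of the 47 liver arrays (y axis, log2 intensity) by group (x axis); open points are arrays without UVR, filled points arrays with UVR, and bars the mean ± SD. The Control + UVR points sit lowest against their partners, and under the sunscreens the open and filled points cover overlapping ranges.

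Under the ZnO product none of the genes was called different with UVR. The log2 difference, ZnO + UVR minus ZnO-UVR, was -0.28 for Zfp39 (95% interval -0.56 to 0.002), -0.23 for Akap7 (-0.50 to 0.04), -0.13 for 2610008E11Rik (-0.40 to 0.14) and 0.01 for N6amt1 (-0.23 to 0.26). By limma 0 of 9815 transcripts (0%) passed the threshold in this comparison, 215 had an unadjusted p under 0.05, and 0 of the 4 genes had one. For Zfp39 the unadjusted p in limma was 0.0516 and changed with the setting. It was 0.0164 with array weights, 0.0189 with the compared groups alone and 0.0498 with unmoderated variances. Quantile normalisation gave 0.102 and the fit without the block 0.168, and no setting gave a call. By the exact permutation test over arrays the lowest unadjusted p of the 4 genes was 0.119 (Zfp39); that test has a smallest p of 0.00216 here and needs 213 transcripts at it before any can pass the adjustment, so only its unadjusted p is read. The estimates stayed below 0 in every setting tried for Zfp39 (-0.34 to -0.22), Akap7 (-0.28 to -0.18) and 2610008E11Rik (-0.20 to -0.06), and that of N6amt1 did not keep its sign.

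Under the TiO2 product 2610008E11Rik was the gene with the lowest estimate, -0.34 (95% interval -0.60 to -0.08), with an unadjusted p of 0.0109 in limma and an adjusted p of 0.431. Its estimate stayed below 0 with each array left out (-0.41 to -0.30). The others were at -0.01 (Akap7, -0.27 to 0.25), -0.04 (Zfp39, -0.31 to 0.23) and 0.05 (N6amt1, -0.18 to 0.28). Thus 0 of the 4 genes passed, whereas 64 of 9815 transcripts (0.652%) did, 23 higher and 41 lower. One of the 4 genes, 2610008E11Rik, had an unadjusted p under 0.05 by limma and by the exact permutation test (0.0390).

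Under the organic product the differences were -0.16 for Zfp39 (95% interval -0.43 to 0.11), -0.07 for Akap7 (-0.33 to 0.19), -0.06 for N6amt1 (-0.29 to 0.17) and 0.04 for 2610008E11Rik (-0.22 to 0.30). Without Organic-UVR replicate 1 they were -0.20, -0.12, -0.09 and 0.002. By limma 0 transcripts passed (0%), 333 had an unadjusted p under 0.05, and 0 of the 4 genes had one by limma or by the exact permutation test.

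Averaged over the 3 sunscreens, Zfp39 was at -0.16 (95% interval -0.32 to -0.003, unadjusted p = 0.0463), 2610008E11Rik at -0.14 (-0.29 to 0.008), Akap7 at -0.10 (-0.25 to 0.05) and N6amt1 at 0.004 (-0.13 to 0.14). The adjusted p in limma was 1.00 for each, 0 transcripts passed (0%) and 255 had an unadjusted p under 0.05. Without Organic-UVR replicate 1 the averages were -0.18, -0.16, -0.12 and -0.01.

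Of the 12 estimates under a sunscreen, 9 were below 0 and 11 had a 95% interval that included 0. All 12 had a lower bound above the estimate of the same gene without sunscreen, which the choice of the genes favours. The closest was 2610008E11Rik under TiO2, with a lower bound of -0.596 against -0.605. The intervals overlapped the interval without sunscreen in 5 of 12 cases. Since the estimates without sunscreen chose the genes, the distance between the UVR effects is described and not tested. The choice favours low estimates without sunscreen and so large distances, which the intervals do not allow for. Each sunscreen's effect minus that without sunscreen ran from 0.27 (2610008E11Rik, TiO2, 95% interval -0.10 to 0.63) to 0.64 (2610008E11Rik, organic, 0.28 to 1.01). Without Organic-UVR replicate 1 the organic distances were 0.61 for 2610008E11Rik and 0.45 to 0.47 for the other genes. For N6amt1 the distances were 0.56 (0.22 to 0.89) with ZnO, 0.60 (0.27 to 0.92) with TiO2 and 0.49 (0.16 to 0.81) with the organic product.

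The UVR effects of the sunscreens were also set against one another, which uses no array that chose the genes. None of these 12 differences passed in limma. The one furthest from 0 was that of 2610008E11Rik between the organic and the TiO2 product (0.38, 95% interval 0.01 to 0.74, adjusted p = 0.889). Without Organic-UVR replicate 1 it was 0.34 (-0.03 to 0.71). Those of N6amt1 ran from -0.11 to 0.04, and without that array from -0.14 to 0.04.

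**Figure D3:**
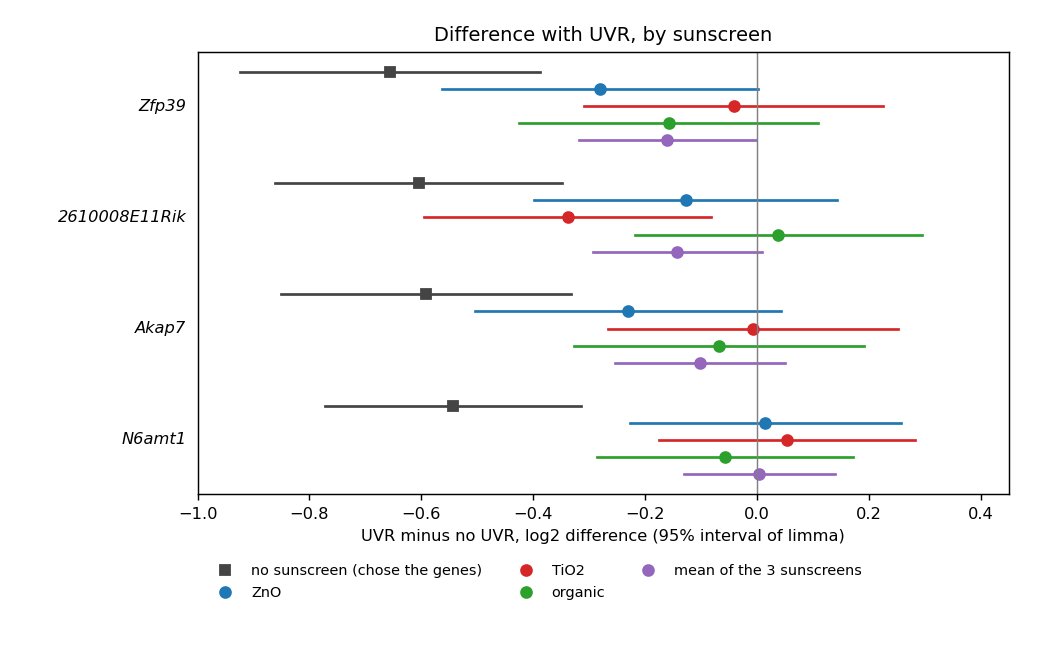
Log2 difference between mice with and without UVR (x axis) for each gene without sunscreen, under each product and averaged over the products; points are limma estimates and lines 95% intervals. The squares chose the genes and lie between -0.66 and -0.54, and the estimates under sunscreen lie between -0.34 and 0.05.

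The sunscreen groups, with and without UVR, also had lower means than Control-UVR. Control-UVR had the highest mean of all 8 groups for each of the 4 genes, which the choice of the genes favours, and all 24 differences between a sunscreen group and Control-UVR were below 0. N6amt1 was lower than in Control-UVR by -0.28 in ZnO-UVR, -0.33 in TiO2-UVR and -0.48 in Organic-UVR, groups that had no UVR, against -0.54 in Control + UVR. 2610008E11Rik was at -0.52 in Organic-UVR and at -0.63 in TiO2 + UVR, beside -0.60 in Control + UVR. Without Organic-UVR replicate 1 the values in Organic-UVR were -0.45 for N6amt1 and -0.49 for 2610008E11Rik. Zfp39 and Akap7 in ZnO-UVR were close to Control-UVR (-0.02 and -0.06). These comparisons share the Control-UVR arrays with the choice of the genes, and no test is read from them.

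In the order of the group means, Control + UVR was last for Zfp39 (5.10 ± 0.40, SD, n = 6), Akap7 (6.21 ± 0.29) and N6amt1 (5.42 ± 0.23), and TiO2 + UVR was last for 2610008E11Rik (6.41 ± 0.21), just under Control + UVR (6.43 ± 0.48). Control-UVR came first at 5.75 ± 0.35 for Zfp39, 6.80 ± 0.21 for Akap7, 5.96 ± 0.23 for N6amt1 and 7.03 ± 0.20 for 2610008E11Rik. ZnO-UVR was next for all but N6amt1, whose second group was ZnO + UVR (5.72 ± 0.10). Neighbours in each order differed by less than the larger of their SDs, with 1 exception, Control-UVR above ZnO + UVR for N6amt1 (0.24). Organic + UVR was next to last for Zfp39 (5.30 ± 0.34), Akap7 (6.43 ± 0.27) and N6amt1 (5.43 ± 0.18).

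**Figure D4:**
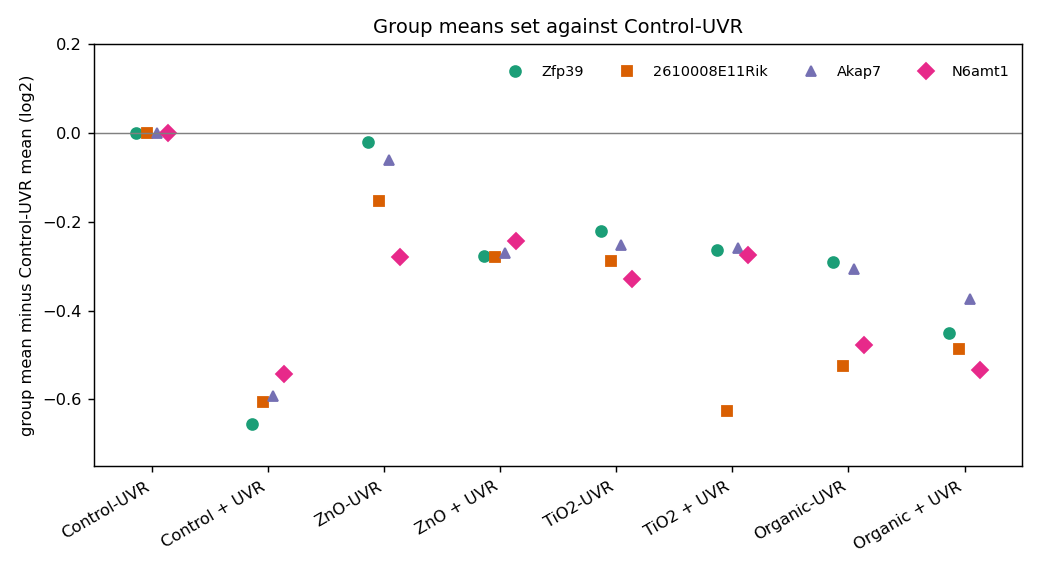
Mean of each group minus the mean of Control-UVR (y axis, log2) for the 4 genes, by group (x axis). All points right of Control-UVR lie below 0, those of Control + UVR between -0.66 and -0.54 and those of Organic-UVR, without UVR, between -0.52 and -0.29 with all 6 arrays.

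Between products at the same UVR condition, 6 comparisons per gene, none of the 4 genes passed in limma. Of the transcripts, 0 passed for TiO2 against ZnO and for Organic against ZnO without UVR and for Organic against TiO2 with UVR (0%; 364, 1191 and 380 at an unadjusted p under 0.05), and 0.683%, 0.713% and 0.54% passed for Organic against TiO2 without UVR, TiO2 against ZnO with UVR and Organic against ZnO with UVR. 2610008E11Rik was at -0.37 in Organic-UVR against ZnO-UVR (95% interval -0.63 to -0.11, unadjusted p = 0.00575, adjusted p = 0.334), and at -0.33 without Organic-UVR replicate 1. It was also at -0.35 in TiO2 + UVR against ZnO + UVR (-0.62 to -0.07, adjusted p = 0.415). N6amt1 was at -0.27 in Organic + UVR against ZnO + UVR (-0.51 to -0.03, adjusted p = 0.407) and at -0.26 against TiO2 + UVR (-0.49 to -0.03, adjusted p = 0.995). Zfp39 and Akap7 were at -0.27 (-0.54 to -0.003) and -0.24 (-0.50 to 0.02) in Organic-UVR against ZnO-UVR, and at -0.23 and -0.19 without Organic-UVR replicate 1.

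The 4 genes moved together from array to array. Pearson r between their levels ran from 0.62 (Zfp39 and Akap7) to 0.71 (Zfp39 and N6amt1) over the 47 arrays, which include those that chose them. Over the 35 arrays with a sunscreen, which did not, r ran from 0.49 (Zfp39 and 2610008E11Rik) to 0.70 (Akap7 and N6amt1). With the group means taken out of those 35 arrays it still ran from 0.43 to 0.72, so the likeness was also seen within the sunscreen groups. Without Organic-UVR replicate 1 these ranges were 0.49 to 0.70 and 0.43 to 0.72. Many other genes were more alike than the 4 were: over the 35 arrays, before the group means were taken out, the place of one of them among the 6888 genes most like another ran from 19th (Akap7 for N6amt1) to 675th (Zfp39 for 2610008E11Rik), with 2610008E11Rik 163rd for N6amt1 and 339th for Zfp39. These correlations are descriptions; the arrays share their processing, and r with the slope of each array over the 35 was 0.12 for Akap7, 0.13 for Zfp39, 0.18 for N6amt1 and 0.42 for 2610008E11Rik. The replicate number, a block in the limma fits, was not taken out of any of these correlations. Arrays of the same number were on average more alike over all transcripts (mean r 0.15, group means taken out) than arrays of different numbers (-0.03). What part the replicate number or the slope has in the likeness was not tested.

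**Figure D5:**
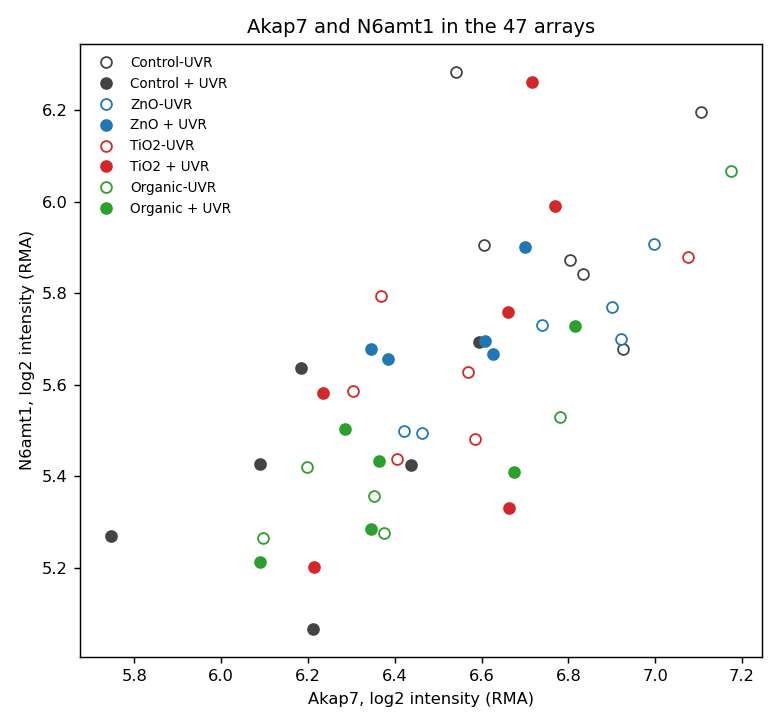
Level of N6amt1 (y axis) against Akap7 (x axis), log2 intensity, in the 47 arrays; open points are arrays without UVR and filled points arrays with UVR. Arrays with a higher Akap7 tend to have a higher N6amt1, with r of 0.69 over all 47 and 0.70 over the 35 with a sunscreen.

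The genes with the pattern most like each over the 47 arrays were as follows. For Zfp39 they were Iars, a cytosolic tRNA synthetase (r = 0.71), Gigyf2, a repressor of translation (0.71), and N6amt1 itself (0.71). For 2610008E11Rik they were Cwc27, a spliceosome component (0.83), Vps53, a vesicle tethering subunit (0.77), and the transcription factor Sp4 (0.77). For Akap7 they were the kinesin receptor Ktn1 (0.80), the splicing factor Cdc40 (0.77) and Daam1 (0.76). For N6amt1 they were Ints9, an Integrator subunit (0.74), Nf1, a Ras GTPase activator (0.71), and Ylpm1 (0.71). Over the 35 sunscreen arrays alone r was 0.65 to 0.77 for all of these but N6amt1 with Zfp39 (0.63). Cwc27, the nearest, had a log2 difference of -0.67 with UVR without sunscreen and of -0.12 averaged over the sunscreens, and Iars -0.65 and -0.12. Of the 11 genes other than N6amt1, none was called in either comparison.

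None of the nearest measured genes on the chromosomes was called with the 4 genes. By the gene order of RefSeq GRCm38.p6, the 2 measured genes on either side of Zfp39 (2810021J22Rik, Olfr311, Btnl10 and Rnf187) had log2 differences of -0.07 to 0.13 with UVR without sunscreen. The neighbours of 2610008E11Rik are olfactory and vomeronasal receptor genes (Olfr57, Olfr1351, Vmn2r81 and Vmn2r83), at 0.15 to 0.23. Of the neighbours of Akap7, the cytoskeletal gene Epb41l2 was at -0.47 (adjusted p = 0.202) and Med23, a Mediator subunit, at -0.21, while the urea cycle gene Arg1 and Tmem200a were at -0.16 and -0.05. Of those of N6amt1, the transcription factor Gabpa was at -0.29 and the deubiquitinase Usp16 at -0.23, and Gm10791 and Map3k7cl were at 0.05 and -0.03. Genes not measured here lay in between for most. They numbered up to 1 for Zfp39 and up to 2 for 2610008E11Rik. For Akap7 they numbered 3 (Epb41l2) to 12 (Tmem200a), and for N6amt1 3 (Usp16) to 18 (Gabpa). The 16 neighbours were not called in any UVR comparison in limma.

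The partners of the encoded proteins gave few values. Of Trim28, Etf1, Trmt112, Prkaca, Prkar2a and Prkar2b only Prkar2b, a regulatory subunit of protein kinase A, had a transcript with a single symbol in the table analysed here. The rest were not analysed, which does not mean that the microarray lacks them. Prkar2b was at 0.14 without sunscreen, -0.43 under ZnO, -0.23 under TiO2 and 0.05 under the organic product, and none of these passed (lowest adjusted p = 0.642).

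No other member of the pathways was called in a UVR comparison. Of 30 genes listed for the KRAB corepressor complex 12 were measured, and all 12 had a log2 difference below 0 without sunscreen (median -0.24, range -0.30 to -0.06), against 45.2% of all transcripts and a median over all of 0.03. Under the sunscreens 11, 5 and 7 of the 12 were below 0 with ZnO, TiO2 and organic, with medians of -0.07, 0.02 and -0.02. Of all transcripts 50.0%, 47.4% and 50.7% were below 0 there. The histone deacetylase Hdac2 was at -0.20 and the chromatin compactor Morc2a at -0.26 without sunscreen, and at -0.13 and -0.10 on average with it. Of the 71 other genes named Zfp and a number, 40 were below 0 without sunscreen (median -0.08). On average under the sunscreens, where 49.5% of all transcripts were below 0, 36 of the 71 were (median -0.01). Zfp174 and Zfp72 had the lowest p of these on average, at -0.20 and -0.21, and neither passed.

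Over all transcripts 45.2% were below 0 without sunscreen and 49.5% on average with it, which the counts of the next lists are set beside. Of 27 A-kinase anchoring proteins listed, 12 were measured, with 8 below 0 both without sunscreen and on average with it (medians -0.03 and -0.02). Akap12, which anchors the kinase at the membrane, was at -0.25 without sunscreen and -0.11 on average, and Map2, which anchors it on microtubules, at -0.07 and -0.13. Of 43 genes of protein kinase A and cAMP turnover 18 were measured, 9 of them below 0 without sunscreen and 11 on average (medians -0.02 and -0.03), and the cAMP-responsive factor Creb1 was at -0.18 and -0.13. Of 25 genes listed as partners, substrates and relatives of N6amt1 10 were measured, with 8 below 0 without sunscreen (median -0.24) and 9 on average (median -0.05). Among these the mitochondrial release factor Mtrf1 was at -0.60 without sunscreen (adjusted p = 0.245) and at -0.15 on average, and the ribosomal protein gene Mrps30 at -0.23 and -0.10.

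The markers of liver cell types moved in part with the genes. All 8 sinusoidal endothelial markers measured of 17 were below 0 with UVR without sunscreen (median -0.25, lowest -0.93). Of all transcripts 45.2% were, and none of the 8 markers was called. Their mean level per array was 6.32 to 6.68 in Control-UVR and 5.93 to 6.51 in Control + UVR, and r with that mean over the 47 arrays was 0.45 for Zfp39, 0.52 for 2610008E11Rik, 0.35 for Akap7 and 0.41 for N6amt1. Over the 35 sunscreen arrays r was 0.25, 0.40, 0.16 and 0.29. In the TiO2 and the organic pairs all 8 were below 0 as well (medians -0.12 and -0.11), and in the ZnO pair 3 of 8 (median 0.01). Of all transcripts 47.4%, 50.7% and 50.0% were below 0 in the TiO2, organic and ZnO pairs. The marker values of the organic pair include Organic-UVR replicate 1. The hepatocyte markers had a median of -0.04 without sunscreen, and r with their mean over the 47 arrays was -0.01 to 0.26. With the mean of the 8 stellate cell markers measured of 17, r over the 47 arrays was 0.39 for Akap7, 0.33 for N6amt1, 0.24 for Zfp39 and 0.21 for 2610008E11Rik, and over the 35 it was 0.18, 0.33, 0.17 and 0.10. With the 10 leukocyte markers r over the 47 arrays was -0.30 for 2610008E11Rik (-0.35 over the 35) and -0.04 to 0.06 for the others. With the macrophage and bile duct markers it was -0.20 to 0.13. The part of any of these cells in the level of the 4 genes was not tested.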

How the data were processed

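Liver RNA of 47 mice was measured on single-colour arrays, 1 array per mouse. The deposited values are log2 intensities that the authors made by robust multi-array averaging (RMA, per the labels). Per the study's methods the chips were run in 6 batches with 1 chip of each group, and batch effects were removed; whether the deposited values carry that step is not given in the sources used here. Genes were named from the platform annotation with symbols updated by Entrez identifier, which gave 1 symbol to 7450 transcripts, several to 511 and none to 1854. The build behind the annotation is not given in the sources used here.

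Of 16383 probesets 6568 controls were left out and 9815 transcripts tested with limma 3.58.1 in R 4.3.3, with the group and the replicate number as a block over all arrays, empirical Bayes moderation (34 residual degrees of freedom before it) and Benjamini-Hochberg adjustment over all transcripts. A call is an adjusted p under 0.1. No further filter was applied to the table analysed here, which holds fewer transcripts than the study reports analysing. Counts and adjustment cover the transcripts of this table, and genes called measured are those with a single symbol in it. The script was tested on simulated data. The labels call the samples biological replicates, so p-values measure the spread between mice and not between cages. The number of arrays limits the precision: the median standard error was 0.14 for a difference of 2 groups of 6.

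Members, gene lists and motifs were chosen with earlier results of these data known. Named genes were the 4 members, the transcripts next to the threshold, for each member the 3 genes with the highest r and the 2 measured genes on either side, and from each list the called genes or else the 2 with the lowest p in the average UVR effect. Lists covered KRAB corepressors, A-kinase anchors, protein kinase A and cAMP turnover, N6amt1 partners, the Zfp genes and markers of hepatocytes, macrophages, sinusoidal endothelium, stellate cells, bile duct, leukocytes and red cells. Alternatives left out the block, fitted the compared groups alone, left variances unmoderated, weighted arrays, normalised again by quantiles, left out dim transcripts, used an adjusted p under 0.05, kept 1 transcript per gene, took the array slope as a covariate, used an exact permutation test, or left out each array.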

Additional observations from a re-analysis of the deposited data

Results flagged for a closer look

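In 4 of the 32 pairs of a gene and a group, 1 array lay far from the others of its group, where chance gives about 1 in 20. 2610008E11Rik in ZnO + UVR replicate 5 was at 6.57 with the next array at 6.79, and without it the UVR effect under ZnO was -0.12. N6amt1 in ZnO + UVR replicate 2 was at 5.90 with the next at 5.69, and without it that effect was 0.004. Akap7 in TiO2-UVR replicate 2 was at 7.08 with the next at 6.58, and without it the UVR effect under TiO2 turned from -0.01 to 0.06. N6amt1 in Organic-UVR replicate 3 was at 6.07 with the next at 5.53, and without it the UVR effect under the organic product turned from -0.06 to 0.03. None of these effects passed with or without the array.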

How the results depend on the processing

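No member was called for UVR under a sunscreen, or between products at the same UVR condition, under any alternative. Arrays of the same replicate number were on average more alike (mean r 0.15, group means taken out) than arrays of different numbers (-0.03). The lowest pair of the same number was at -0.51. With 6 numbers in use, 20 of 47 arrays were closest on average to arrays of their own number. Whether the number stands for the chip batch is not given in the sources used here. With no replicate block the called transcripts were 42 in place of 64 for UVR under TiO2, 41 (of 67; 71 without Organic-UVR replicate 1) for Organic against TiO2 without UVR, 46 (of 70) for TiO2 against ZnO with UVR and 30 (of 53) for Organic against ZnO with UVR. The cause was not tested for any of the following. In the order UVR under TiO2, Organic against TiO2 without UVR, TiO2 against ZnO with UVR and Organic against ZnO with UVR, the exact permutation test called 0 in each, where its smallest p (0.00216) lets none pass unless 213 transcripts reach it. Quantile normalisation gave 100, 103 and 122 for the first 3 and the array slope 178, 124 and 188. Array weights gave 352, 236 and 319 for the last 3, and leaving out dim transcripts 113, 111 and 114. An adjusted p under 0.05 gave 42 for the second and 1 transcript per gene 83 for the fourth. Where 0 transcripts were called, array weights gave 6 for UVR under ZnO, 5 for UVR under the organic product, 1 for TiO2 against ZnO without UVR, 84 for Organic against ZnO without UVR and 2 for Organic against TiO2 with UVR; the slope gave 1 for TiO2 against ZnO without UVR, dim transcripts left out 20 for Organic against ZnO without UVR, and the compared groups alone 1 for UVR under ZnO and 25 for Organic against TiO2 with UVR. With each array left out the counts ran from 31 (without TiO2 + UVR replicate 6) to 83 for UVR under TiO2, 0 to 20 (without ZnO-UVR replicate 1 or 2) for Organic against ZnO without UVR, 37 (without TiO2-UVR replicate 3) to 72 for Organic against TiO2 without UVR, 38 (without ZnO + UVR replicate 1) to 127 (without TiO2 + UVR replicate 1) for TiO2 against ZnO with UVR and 18 (without Organic + UVR replicate 4) to 299 (without Organic + UVR replicate 1) for Organic against ZnO with UVR.

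Signs turned only for values near 0. With the compared groups alone N6amt1 was at -0.00054 on average over the sunscreens and at 0.066 for TiO2 against ZnO with UVR, where the array slope gave 0.021. Array weights put Akap7 at 0.012 for Organic against TiO2 without UVR and at -0.039 for TiO2 against ZnO with UVR; quantile normalisation put Zfp39 at -0.0072 for the latter and Akap7 at 0.035 for Organic against ZnO with UVR. With arrays left out N6amt1 ran from -0.038 to 0.081 (UVR under ZnO), -0.062 to 0.14 (TiO2), -0.089 to 0.030 (organic), -0.034 to 0.037 (average) and -0.13 to 0.066 (TiO2 against ZnO with UVR), Akap7 from -0.11 to 0.064 (UVR under TiO2), -0.12 to 0.031 (organic), -0.15 to 0.017 (Organic against TiO2 without UVR) and -0.041 to 0.086 (TiO2 against ZnO with UVR), Zfp39 from -0.11 to 0.027 (UVR under TiO2) and -0.030 to 0.097 (TiO2 against ZnO with UVR), and 2610008E11Rik from -0.0043 to 0.11 (organic). Each member had 1 transcript, so the mean over transcripts of a gene could not differ. With a median SE of 0.14, differences under about 0.29 on the log2 scale were not resolved by the unadjusted interval of a typical transcript. A call, which needs an adjusted p under 0.1, asked for a larger difference. Daam1 at -0.59 without sunscreen (adjusted p = 0.125 in limma) was not called. Neither was 2610008E11Rik at -0.34 under TiO2 (adjusted p = 0.431 in limma). The absence of a call under a sunscreen thus does not exclude differences beyond 0.29.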

Other observations

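The other cell type markers gave the following for UVR, and none of them but Hal was called in a UVR comparison. Hal, the histidine ammonia-lyase of hepatocytes, was lower with UVR under the TiO2 product (-0.85, adjusted p = 0.00144 in limma), with -0.13 without sunscreen, 0.22 under ZnO and 0.32 under the organic product; the other 19 hepatocyte markers did not pass. Of 8 stellate cell markers 5 were below 0 without sunscreen (median -0.16) and 2 on average under the sunscreens (median 0.05). Of 8 bile duct markers 5 and 4 were below 0 (medians -0.12 and -0.005). Of 10 leukocyte markers 5 were below 0 in both (medians 0.02 and -0.01), and all 10 under ZnO (median -0.15). Of 4 macrophage markers 2 were below 0 without sunscreen (median -0.05). The single red cell marker measured, Slc4a1, was at 0.15 without sunscreen and -0.12 on average. Over all transcripts 45.2% were below 0 without sunscreen, 49.5% on average and 50.0% under ZnO.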
